A study of Mus musculus with 6 samples.

Results

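The baseline transcriptome of spleen endothelium was described from the 3 wild-type libraries of a series of 6 mouse RNA-seq libraries. The libraries were chosen by genotype alone, and no measured value entered that choice. Gene lists were chosen with earlier results of these data known, and a few genes were named after their values were seen. The cells were CD31+ CD45- cells sorted from spleens digested with collagenase, from wild-type C57BL/6 mice, and the labels call them blood endothelial cells. The labels give no treatment, age or sex and do not say if separate animals were used for the 3 libraries, so the spread between libraries may be partly technical. The libraries are called WT_1, WT_3 and WT_4 as in the deposited table, and 3 values in a row follow that order. The other 3 libraries of the series, which come from mice lacking Stab1, entered no comparison, and their columns served only to fix what 1 read is worth for each gene.

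CD31 (Pecam1) is a surface protein of endothelium and CD45 (Ptprc) a surface protein of leukocytes, so the gate asks for vessel cells and leaves out white blood cells. In the spleen, arterioles of the white pulp open into the red pulp, where blood passes through open cords into venous vessels. Sinusoidal endothelium carries scavenger receptors, the marginal sinus next to the white pulp carries the addressin MAdCAM-1, and CD31 is also found on platelets and some progenitor cells.

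Levels were given as RPKM, reads per kilobase of gene scaled to the depth of the library, and genes were ordered by this unit. A trend with gene length that differed between libraries remained and is described below. The RPKM values were whole multiples of 1 read's worth for all 17111 genes above 0, within a tolerance of 0.00001 read, which gave 40415862, 50358560 and 44968826 reads over the listed genes. Of 23337 genes, 15797 to 15939 had a value above 0 in each library. Protein-coding genes held 98.9 to 99.1% of reads. Xist, the RNA that coats the inactive X chromosome, had 981, 1582 and 1461 reads, and the Y-linked genes Ddx3y, Eif2s3y and Kdm5d had 0 reads in all 3 libraries, which allows up to 3 reads each. The Y-linked Uty had 0, 0 and 1 read.

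The sort was first checked on its own markers. Pecam1 (chr11:106654213-106715281 in GRCm38, the build also called mm10) stood at 283, 326 and 273 RPKM, rank 217 of all genes. Ptprc (chr1:138062859-138175756) stood at 0.110, 0.0768 and 0.0618 RPKM, from 26, 22 and 16 reads. The gate's positive marker was thus far above its negative marker in each library. Cldn5 (chr16:18776847-18778262), the tight junction protein of endothelium, reached 1084, 1108 and 1041 RPKM (1078 ± 33.9, SD, n = 3). Clec4g (chr8:3707066-3720695), a C-type lectin of sinusoidal endothelium, reached 1541, 1797 and 1612 RPKM (1650 ± 132, SD, n = 3). Both were among the 30 highest genes. The scavenger receptor Stab2 (chr10:86841194-87008038) stood at 117, 214 and 168 RPKM, and its relative Stab1 (chr14:31139017-31168651) at 21.6, 43.6 and 31.4 RPKM. Both stabilin genes were lowest in WT_1 and highest in WT_3. Madcam1 (chr10:79664559-79668542), the addressin of mucosal venules and of the splenic marginal sinus, stood at 7.06, 8.06 and 7.0 RPKM, so all 5 endothelial markers were present but spanned levels from rank 13 to rank 6839. In bulk RNA a gene carried by few cells and a gene carried weakly by many cells cannot be told apart.

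A gene was counted as detected at 1 RPKM or more in all 3 libraries. This held for 10511 genes, 45.0% of those listed, the share to set beside each count of detected genes below. A level of 5 RPKM or more in all 3 was reached by 7356 genes (31.5%), a level of 100 RPKM by 803 genes (3.44%) and a level of 1000 RPKM by 27 genes. The 10 highest genes held 10.9% of all RPKM, the 100 highest 26.9% and the 1000 highest 61.8%. Between 494 and 552 genes held 50% of the RPKM of a library.

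**Figure D1:**
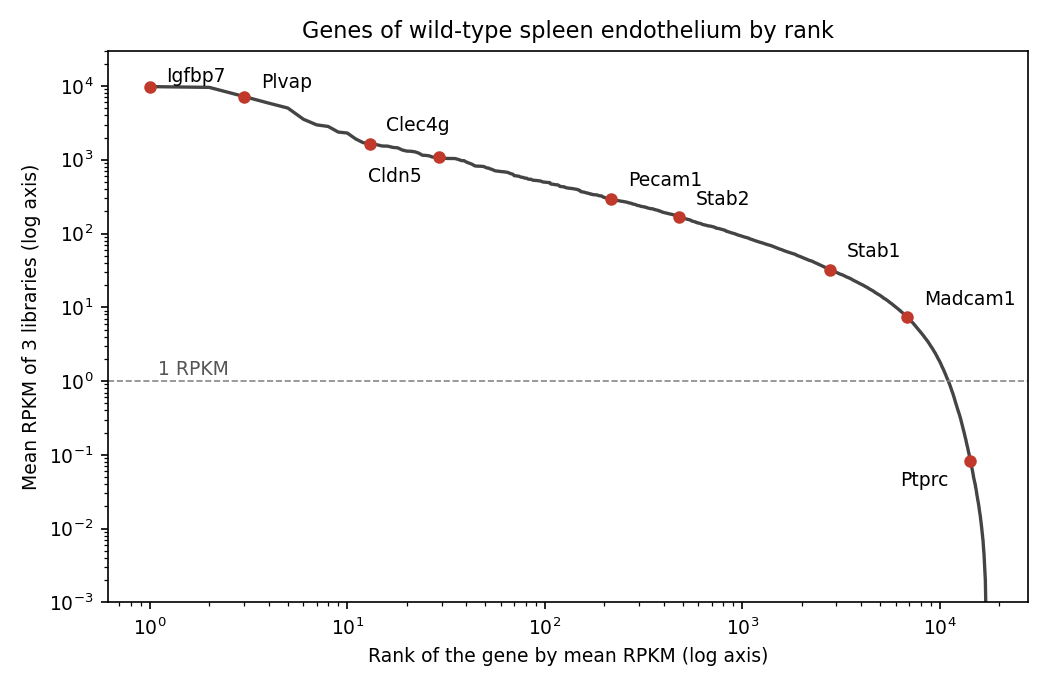
Mean RPKM of the 3 wild-type libraries (log axis) for every gene above 0, in order of rank (log axis), with 9 named genes as red points. The curve runs from Igfbp7 at 9800 RPKM through Cldn5 at 1078, Pecam1 at 294 and Madcam1 at 7.37 to Ptprc at 0.0829, under the dashed line at 1 RPKM.

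The most abundant transcripts encoded matrix, fenestral and MHC class I proteins. Igfbp7 (chr5:77349240-77408045), a secreted binding protein deposited in vessel basement membranes, was highest at 10855, 9441 and 9105 RPKM (9800 ± 928, SD, n = 3). B2m (chr2:122147687-122153082), the light chain of MHC class I, stood at 11482, 7614 and 9595 RPKM (9564 ± 1934). These values overlap, so Igfbp7 and B2m could not be ordered. Plvap (chr8:71497753-71511806), the protein that builds the diaphragms of fenestrae and caveolae, followed at 7438, 7430 and 6716 RPKM (7195 ± 415), below B2m in every library. Sparc, a collagen-binding matrix protein, stood at 6734, 6315 and 4506 RPKM, and its 2 highest libraries were WT_1 and WT_3. The MHC class I heavy chains H2-D1 (5411, 4680 and 4962 RPKM) and H2-K1 (3186, 2777 and 2948 RPKM) had ranks 5 and 7, on either side of the secreted chaperone Clu (3656, 3700 and 3248 RPKM).

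Other genes among the 30 highest are given by what they encode. Actin and its binding proteins were represented by Tmsb4x (2825 RPKM on average), Actb (2372), Pfn1 (1449) and Dstn (1084). Membrane proteins responsive to interferon were represented by Ifitm2 (1606), Ly6e (1470) and Ifitm3 (1280). Carriers and binders of metals, vitamins and lipids included Sepp1, now Selenop, the plasma selenoprotein (1922), Tcn2, the vitamin B12 carrier (1144), Fth1, the ferritin heavy chain (1355), and Cd36, the fatty acid and scavenger receptor (1129). Lrg1, a secreted glycoprotein of venules that acts on TGF-beta signalling, stood at 1768, 1417 and 1403 RPKM. The early response genes Dusp1 (1364, 1351 and 1214 RPKM) and Fos (1277, 1098 and 1081 RPKM) were also in this group. AU021092, a gene listed under a clone name, had rank 10 at 2569, 2266 and 2068 RPKM. Outside these kinds stood Itm2b (1708 RPKM on average), Serinc3 (1535), Sh3bgrl3 (1230) and Tmem176a (1087).

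Few of these ranks were separated by the ranges of their values. Of the 29 pairs of neighbours in the order, 3 had values that did not overlap, and the ranges of the other 26 overlapped. An overlap of ranges can hide an order that each library shares. Plvap was above Sparc in every library, though their ranges overlap. All 3 libraries placed 24 of these genes in their own top 30, and 37 genes were in the top 30 of at least 1 library.

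**Figure D2:**
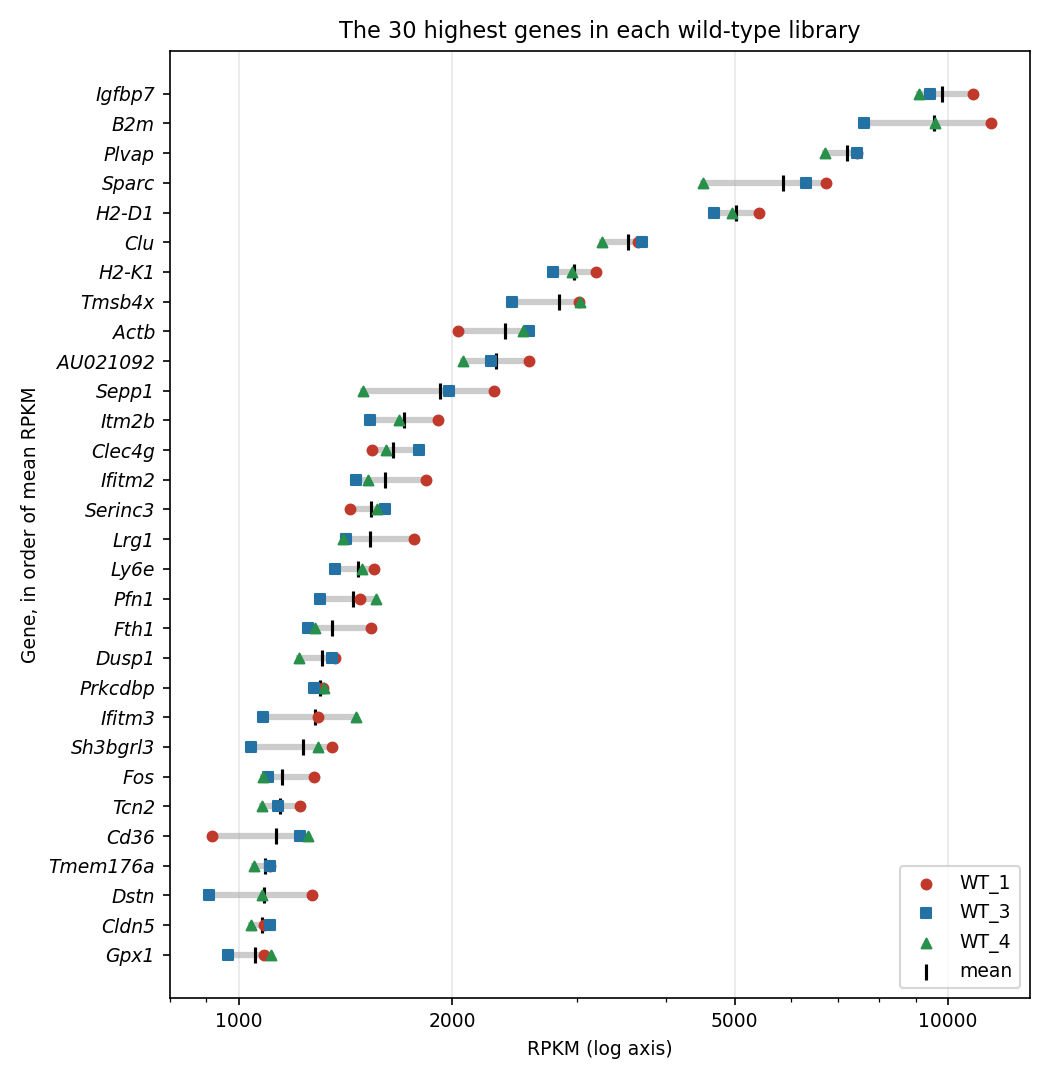
RPKM (log axis) of the 30 highest genes in each of the 3 wild-type libraries, with the mean as a black bar and the range as a grey line. The ranges of neighbouring genes overlap for 26 of 29 pairs, and Cd36 is lowest in WT_1 while B2m is highest there.

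Among gene lists for endothelial identity, the general endothelial list was present throughout. All 29 of its genes were detected, with a median of 93.5 RPKM against 0.669 RPKM over all genes. Above Pecam1 stood Egfl7 (899, 925 and 838 RPKM), a secreted angiogenic factor, and Icam2 (665, 657 and 802 RPKM), a constitutive ligand of leukocyte integrins. Cdh5, the VE-cadherin of adherens junctions, stood at 94.8, 107 and 79.1 RPKM. The lowest member was Vwf, the von Willebrand factor stored by large-vessel endothelium, at 1.74, 2.86 and 1.39 RPKM. Endothelial transcription factors were detected for 39 of 43 genes (median 30.2 RPKM). Sox18 reached 334 RPKM on average, and the ETS factors Ets1, Fli1 and Erg stood at 28.6, 26.8 and 15.5 RPKM. Klf2, which responds to shear stress, stood at 479, 430 and 450 RPKM.

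Genes of sinusoidal endothelium were detected for 19 of 25 entries (median 32.2 RPKM). Behind Clec4g stood Tfpi, the inhibitor of tissue factor (595, 468 and 752 RPKM), and Gpr182, an atypical receptor of sinusoidal endothelium (548, 624 and 563 RPKM). The undetected entries included Rspo3 (0.129 RPKM on average) and Gata4 (0.166 RPKM), a growth factor and a transcription factor of liver sinusoids. The list for liver endothelium overlapped with the sinusoidal one and was detected for 9 of 15 genes, with Wnt2 at 38.3, 43.2 and 62.9 RPKM and Wnt9b at 0.902, 1.36 and 0.916 RPKM.

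Spleen patterning factors were detected for 8 of 10 genes. Nkx2-3, a homeobox factor needed for normal spleen vessels, stood at 194, 174 and 181 RPKM (183 ± 10.2, SD, n = 3), rank 435. Tlx1, a homeobox factor needed to form the spleen, stood at 12.4, 9.30 and 7.80 RPKM, and Nkx2-5 at 4.03, 2.28 and 2.71 RPKM.

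Arterial genes were detected for 19 of 20 entries (median 17.1 RPKM) and venous genes for 14 of 15 (median 16.4 RPKM). Of the defining arterial genes, Gja4 stood at 86.8 RPKM, Efnb2 at 16 and Gja5 at 3.42. Sox17, a further arterial gene, stood at 53.5 RPKM. Of the defining venous genes, Ephb4 stood at 88.8 RPKM, Nr2f2 at 16.4 and Nrp2 at 3.48. Both sets of defining genes were above 1 RPKM on average. Markers of capillaries were detected for 12 of 16 genes, led by Sparc, Cd36 and Gpihbp1 (613, 808 and 801 RPKM), which anchors lipoprotein lipase. Car4, a defining marker of that list, stood at 0.775, 0 and 0.0505 RPKM.

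High endothelial and mucosal-type venule genes were detected for 8 of 13 entries. Cd34 led with 234, 257 and 317 RPKM. Glycam1, a sialomucin ligand of L-selectin, had 2.19 RPKM in WT_1, 0 in WT_3 and 0.0350 in WT_4. Chst4, the sulfotransferase that makes L-selectin ligands, stood at 0.30, 0 and 0.230 RPKM. Lymphatic genes were detected for 7 of 12 entries, and the defining genes diverged. Prox1, the transcription factor of lymphatic fate, stood at 16.9, 33.8 and 27.1 RPKM, while Lyve1 stood at 2.12, 0.698 and 1.17 RPKM and Pdpn at 0.990, 0.0447 and 0.235 RPKM. Prox1 and Lyve1 did not share an order over the libraries, as Prox1 was lowest and Lyve1 highest in WT_1. Flt4, the receptor for VEGF-C, stood at 28.7, 76.8 and 54.9 RPKM. Genes of brain endothelium were detected for 5 of 13 entries (38.46%) and genes of lung endothelium for 7 of 13 (53.85%). Both shares lie near the 45.0% of all genes. Mfsd2a and Slco1c1, transporters of the blood-brain barrier, had means of 0.00307 and 0 RPKM.

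**Figure D3:**
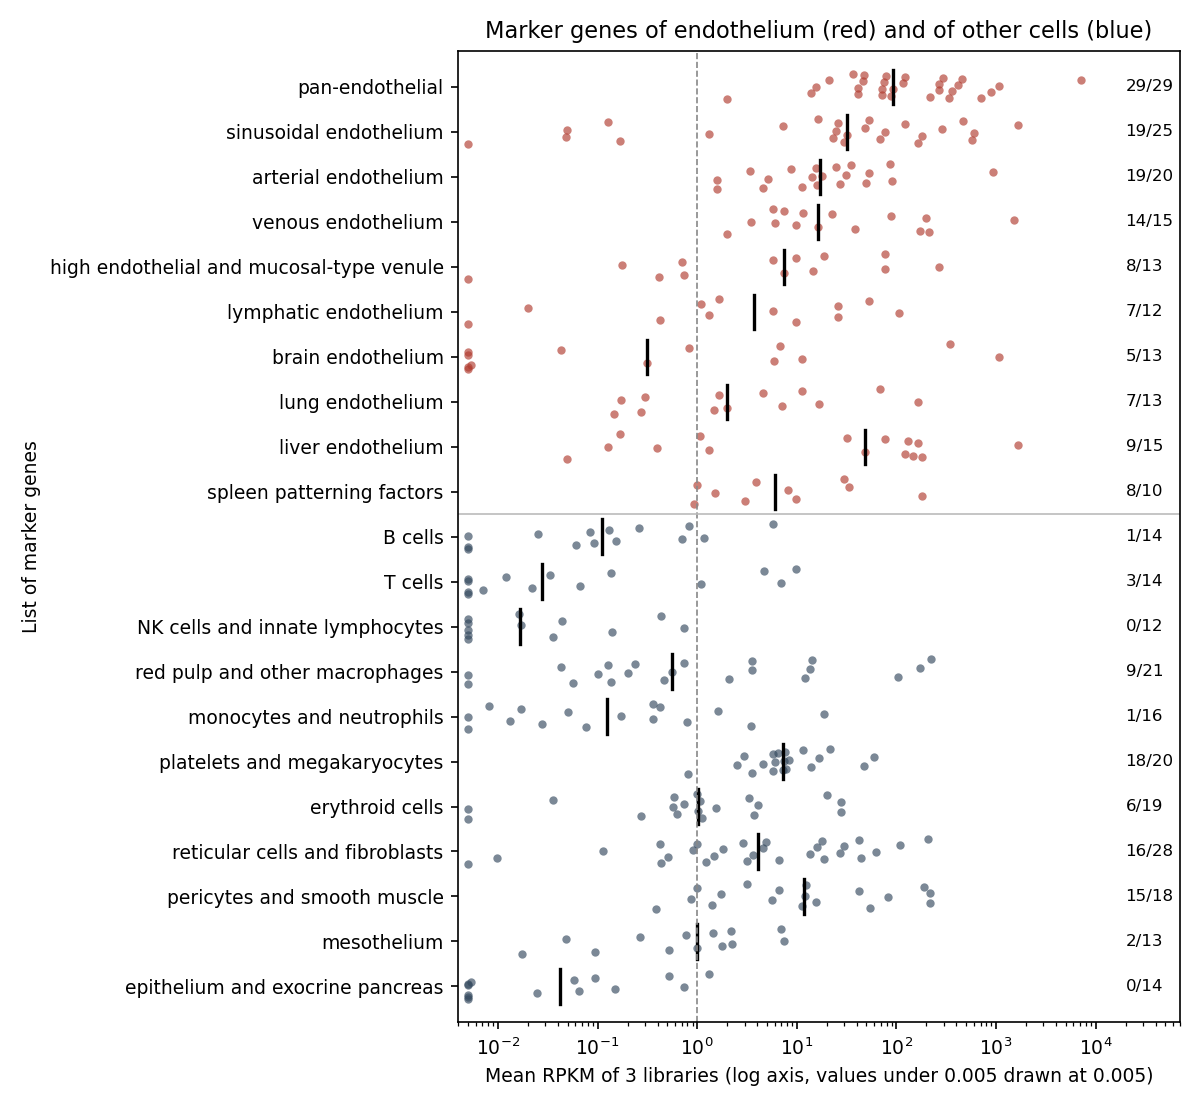
Mean RPKM (log axis) of each gene of 10 endothelial lists (red) and 11 of the 18 lists of other cells (blue). The list median is a black bar, 1 RPKM is a dashed line, and the number detected of the number matched stands at the right. The follicular dendritic cell list is not drawn. The general endothelial list has 29 of 29 genes detected and the NK cell list 0 of 12.

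Junction proteins were detected for 19 of 22 genes (median 90.1 RPKM) and all 9 genes of caveolae and diaphragms that were matched were detected (median 606 RPKM). Prkcdbp, now Cavin3, was close between libraries at 1314, 1277 and 1317 RPKM. Cav1, the coat protein of caveolae, stood at 623, 517 and 678 RPKM. Leukocyte adhesion molecules were detected for 18 of 24 genes (median 38.1 RPKM). Icam1 stood at 224, 245 and 169 RPKM and Vcam1 at 183, 181 and 155 RPKM, both lowest in WT_4.

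Chemokines were detected for 15 of 24 genes. Cxcl10, which draws T cells and is induced by interferon, stood at 657, 571 and 832 RPKM and Cxcl16 at 120, 133 and 141 RPKM. Cxcl13, the B cell chemokine usually made by stromal cells of the follicles, stood at 76.0, 67.6 and 43.7 RPKM, and Ccl19 at 6.66, 4.61 and 2.46 RPKM. Ccl21a was listed at 0 in all 3 libraries. Among their receptors, the atypical receptor Cxcr7, now Ackr3, which removes CXCL12, was highest at 771, 763 and 925 RPKM. The receptor S1pr1, which holds vessels tight and guides lymphocyte exit, stood at 88.9, 81.4 and 96.7 RPKM.

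Growth and niche factors were detected for 31 of 40 genes. Bmp2 stood at 161, 197 and 191 RPKM, Dll1, a Notch ligand needed by marginal zone B cells, at 105, 135 and 152 RPKM, and Kitl, the stem cell factor, at 67.6, 58.5 and 77.1 RPKM. Csf1, a growth factor of macrophages, stood at 18.1, 18.7 and 19.1 RPKM, and Il7 at 2.86, 1.17 and 1.37 RPKM. Receptor tyrosine kinases of vessels were detected for 18 of 22 genes. Tie1 led with 267, 449 and 381 RPKM, and Kdr, the main VEGF receptor, stood at 61.7, 171 and 116 RPKM. WT_1 was lowest for 12 of the 14 genes of that list with a mean of 5 RPKM or more, against 2803 of 7788 genes in all. Kdr, Flt1 and Flt4 are long genes, and the part in this count of the length trend described below was not tested. Notch genes were detected for 17 of 20 entries, with Hes1 highest at 163 RPKM and the receptors Notch1, Notch2 and Notch3 at 4.76, 0.935 and 0.863 RPKM on average. The receptor Notch4, named after its value was seen, was above these at 4.16, 13.1 and 8.59 RPKM.

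MHC class I presentation held 4.50% of all RPKM over its 22 genes, of which 20 were detected. MHC class II presentation held 0.0202% over 15 genes, of which 8 were detected. H2-Ab1 stood at 36.2, 25.2 and 32.9 RPKM and the invariant chain Cd74 at 40.5, 13.1 and 16.2 RPKM. WT_1 was highest for 4 of the 5 class II genes with a mean of 5 RPKM or more, against 3104 of 7788 genes in all. Interferon-stimulated genes were detected for 35 of 36 entries (median 24.2 RPKM). WT_4 was highest for 26 of the 30 of them with a mean of 5 RPKM or more, against 1993 of 7788 genes in all. Irf7 stood at 25.4, 27.6 and 41.3 RPKM and Isg15 at 26.7, 18 and 41 RPKM.

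Promoters of these groups were read from RefSeq (GRCm38.p6), as the 250 bases before the transcript start first listed for each gene. They are shown for B2m and Isg15, which carry a word of the interferon response element, and for Egfl7, an endothelial gene with words for ETS factors. Capitals mark the interferon word, which is TTTC, any 2 bases and TTTC again, and GGAAG, the ETS core, on either strand. The words did not overlap each other there, apart from neighbouring interferon words in Isg15. B2m lies at chr2:122147437-122147686 on the plus strand, Isg15 at chr4:156200819-156201068 on the minus strand and Egfl7 at chr2:26580833-26581082 on the plus strand, each read 5′ to 3′ towards its start.
B2m: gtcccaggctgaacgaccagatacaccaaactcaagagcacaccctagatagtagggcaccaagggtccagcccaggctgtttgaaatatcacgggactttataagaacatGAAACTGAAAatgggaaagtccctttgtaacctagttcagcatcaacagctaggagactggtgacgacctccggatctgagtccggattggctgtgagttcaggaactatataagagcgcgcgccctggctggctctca
Isg15: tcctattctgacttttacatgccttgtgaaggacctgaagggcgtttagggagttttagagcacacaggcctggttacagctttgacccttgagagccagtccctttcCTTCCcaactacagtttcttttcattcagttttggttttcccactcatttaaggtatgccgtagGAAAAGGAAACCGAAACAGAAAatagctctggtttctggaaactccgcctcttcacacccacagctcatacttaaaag
Egfl7: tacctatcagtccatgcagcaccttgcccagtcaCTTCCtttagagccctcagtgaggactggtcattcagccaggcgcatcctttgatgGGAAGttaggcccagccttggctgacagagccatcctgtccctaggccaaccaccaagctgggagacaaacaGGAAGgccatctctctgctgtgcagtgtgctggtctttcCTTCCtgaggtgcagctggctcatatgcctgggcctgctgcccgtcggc

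B2m held 1 interferon word, 139 bases before the start. Isg15 held 3, at 78, 72 and 66 bases. Egfl7 held 4 ETS cores, at 216, 160, 88 and 49 bases. The promoter table held 24 of the 36 interferon-stimulated genes, 18 of the 22 MHC class I genes, 15 of the 29 general endothelial genes and 8423 detected genes, and the others were not analysed here. The interferon word was found in 14 of 24 promoters of interferon-stimulated genes (58.3%), in 3 of 18 of MHC class I genes (16.7%), in 2.60% of detected genes and in 3.04% of all 27025 promoters. The ETS core was found in 12 of 15 general endothelial promoters (80.0%), in 69.1% of detected genes and in 63.6% of all promoters. A longer ETS word, ACAGGAAG, which contains the core, was found in 3 of the 15 (20%) and in 2.79% of all promoters. Median GC content was 60.4% for detected genes and 52.0% for all promoters. A match of letters describes these windows and is not a measured binding site.

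Uptake and breakdown followed. Lysosomal genes were detected for 32 of 33 entries (median 55.6 RPKM), led by Laptm4a (826, 669 and 753 RPKM) and the protease Ctsd (665, 693 and 590 RPKM). Clathrin genes were detected for 25 of 27. Scavenger and endocytic receptors were detected for 13 of 25 genes (52%), near the 45.0% of all genes. Fcgrt, the receptor that recycles IgG and albumin, stood at 837, 764 and 708 RPKM, Scarb1, the HDL receptor, at 173, 267 and 182 RPKM, and the mannose receptor Mrc1 at 14.6, 21.7 and 13.1 RPKM. Fcgr2b, the inhibitory IgG receptor of sinusoidal endothelium, spread from 170 RPKM in WT_1 to 135 in WT_3 and 63.9 in WT_4. In iron handling, the ferritin genes Fth1 and Ftl1 (448 RPKM) led, the iron exporter Slc40a1 stood at 95.1, 119 and 94.6 RPKM, and the transferrin receptor Tfrc was at 0.942, 1.51 and 0.539 RPKM.

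In lipid metabolism, Star, a carrier that brings cholesterol into mitochondria, stood out. It reached 817, 937 and 1387 RPKM (1047 ± 300, SD, n = 3), rank 31. Sterol synthesis and uptake genes, Star included, were detected for 26 of 28 entries (median 22.2 RPKM), with Hmgcs1 at 87.8, 94.0 and 117 RPKM. WT_4 was highest for 15 of 24 sterol genes with a mean of 5 RPKM or more, against 1993 of 7788 genes in all. Fabp4, the fatty acid binding protein of capillaries, stood at 232, 116 and 118 RPKM, and Fabp5 at 280, 270 and 236 RPKM.

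Among coagulation and fibrinolysis genes, Tfpi was highest, followed by Serpinb6a (519 RPKM on average), Anxa2 (404), S100a10 (396), Gas6 (249) and Pros1 (205, 204 and 210 RPKM). Thbd, which like Tfpi and Pros1 restrains coagulation, stood at 112, 172 and 153 RPKM. Factor VIII (F8) stood at 23.5, 31.7 and 33.5 RPKM. The 4 highest complement genes were regulators, Cd55, Cr1l, Serping1 and Cd59a. Cd55 stood at 563, 436 and 400 RPKM and C3 at 19.1, 11.2 and 12.2 RPKM. Of vasoactive genes, Ramp2, the partner of the adrenomedullin receptor, reached 1043, 922 and 1027 RPKM, and its receptor Calcrl 54.9, 64.0 and 91.5 RPKM. Nos3, the endothelial nitric oxide synthase, stood at 59.5, 84.5 and 91.9 RPKM. Of matrix genes, 36 of 42 were detected. Col4a1 and Col4a2, the chains of basement membrane collagen, stood at 123, 324 and 204 RPKM and at 56.2, 144 and 90.6 RPKM, each lowest in WT_1 and highest in WT_3.

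Genes of dissociation and early response were high. They were detected for 28 of 29 entries (median 93.9 RPKM), and 13 of them were at 100 RPKM or more in all 3 libraries. WT_1 was highest for 24 of 27 with a mean of 5 RPKM or more, against 3104 of 7788 genes in all. Junb stood at 802, 674 and 616 RPKM and Egr1 at 253, 186 and 192 RPKM. Heat shock genes were detected for 21 of 21, with Hspa1b at 714, 801 and 926 RPKM and Hspa1a at 472, 600 and 616 RPKM, both lowest in WT_1. Of the 20 heat shock genes with a mean of 5 RPKM or more, WT_1 was highest for 7 and lowest for 7. The part of tissue digestion in the levels of these genes was not tested. Proliferation genes were detected for 29 of 32 entries (median 5.34 RPKM). The defining Top2a, Ccnb1 and Mki67 stood at 2.17, 1.39 and 0.426 RPKM on average. The mitotic genes Cenpa and Ccnb2, named after their values were seen, stood at 21.3 and 7.93 RPKM.

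Basic cell functions differed in level. Families were taken by gene symbol. Nuclear-encoded genes of the respiratory chain and ATP synthase were detected for 79 of 85 entries (median 171 RPKM) and proteasome subunits for 42 of 43 (median 116 RPKM). Cytosolic ribosomal protein genes were detected for 77 of 85, with a median of 16.8 RPKM. The share of each gene's 50-base words found also in transcripts of other genes was computed on GENCODE M21. The median share was 31.55% for ribosomal protein genes, 0.778% for the respiratory chain and 0.0458% for the proteasome. Of the ribosomal genes, 22 with at least 50% shared words had a median of 10.7 RPKM. The 16 with less than 10% had a median of 31.5 RPKM. These 16 ran from Rpl10l, Rpl39l and Rpl3l (0, 0.0789 and 0.0986 RPKM on average) to Rps14 (365 RPKM). Rpl26, named after its value was seen, had 0.0147 RPKM on average. Levels of these genes are uncertain, and the part of reads shared between copies was not tested.

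The same doubt touches other genes with close copies. Gapdh, named after its value was seen, stood at 26.5, 24.7 and 25.6 RPKM with 27.8% of its words shared with 218 other genes. Actg1 stood at 21 RPKM on average with 56.7% shared, and Actb at 2372 RPKM with 14.2% shared. Ccl21a and the alpha globin gene Hba-a1, both listed at 0, had 71.6% and 67.5% shared. Among high genes, Ftl1 had 90.6% shared, Ramp2 73.8%, Hspa1a 66.3%, Hspa1b 62.3% and Ifitm2 48.5%. Plvap, B2m, Clu and Clec4g had 0% and Igfbp7 2.43%.

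Markers of other cells were then read in the same way. Of 253 genes in 18 lists of other cell types, 95 were detected, against 45.0% of all genes. The largest sum was that of the follicular dendritic cell list, 4494, 4572 and 3962 RPKM, with 6 of 10 genes detected. Most of it was Clu (3656, 3700 and 3248 RPKM), the secreted chaperone named above among the most abundant transcripts. Haematopoietic progenitor genes were detected for 8 of 14 entries, with sums of 1016, 966 and 1493 RPKM. Of these, 2 were at 100 RPKM or more in all 3 libraries, and the median of the detected genes was 8.59 RPKM. Dendritic cell genes were detected for 2 of 12, with sums of 693.5, 678.5 and 827.5 RPKM. Most of that sum was Bst2 (660 RPKM on average), which is also in the interferon-stimulated list. Which cells carried these genes was not tested. Most lymphocyte genes were near 0. B cell genes were detected for 1 of 14 (Ebf1, which stromal cells also carry, at 5.79 RPKM) and NK cell genes for 0 of 12. T cell genes were detected for 3 of 14. Cd3e stood at 0.10, 0 and 0 RPKM and Cd3d at 0.0361, 0 and 0 RPKM, while Cd5 stood at 10.1, 8.27 and 11.4 RPKM and Lck at 6.67, 6.47 and 7.75 RPKM. Epithelial and exocrine pancreas genes were detected for 0 of 14. The receptor chains Trac and Trbc2 were not analysed here.

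Macrophage genes were detected for 9 of 21 entries (42.9%), near the 45.0% of all genes. The highest, Fcer1g (224 RPKM), Vcam1 and Slc40a1, are shared with other cells, and the defining Adgre1 (F4/80, listed as Emr1) and Cd68 stood at 0.0562 and 0.735 RPKM on average. Neutrophil and monocyte genes were detected for 1 of 16, Plac8 at 21.1, 15.7 and 19.6 RPKM. The granule genes Mpo and Elane stood at 0.980, 9.51 and 0.00860 RPKM and at 0, 4.86 and 0 RPKM. Il2rg, the common gamma chain of lymphocyte cytokine receptors, named after its value was seen, reached 1143, 961 and 1019 RPKM, rank 32.

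Platelet and megakaryocyte genes were detected for 18 of 20 entries, and their summed RPKM was 218, 379 and 144. WT_3 was highest for 12 of the 15 with a mean of 5 RPKM or more, against 2691 of 7788 genes in all. Pf4 and Ppbp, the chemokines of platelet granules, stood at 52.3, 88.4 and 36.3 RPKM and at 37.1, 78.8 and 26.8 RPKM, and Itga2b, the platelet fibrinogen receptor chain, at 9.58, 25.7 and 6.00 RPKM. Erythroid genes were detected for 6 of 19 entries, with sums of 140, 107 and 41.1 RPKM. The carbonic anhydrase Car1 stood at 39.2, 39.2 and 5.49 RPKM, so WT_4 was lowest for both blood lineages.

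Stromal genes were uneven too. Pericyte and smooth muscle genes were detected for 15 of 18 entries (median 11.7 RPKM), led by Acta2, smooth muscle actin, at 320, 176 and 160 RPKM. Cspg4 and Pdgfrb, which mark pericytes, stood at 0.994 and 3.14 RPKM on average. Reticular cell and fibroblast genes were detected for 16 of 28, with sums of 824, 570 and 464 RPKM. WT_1 was highest for 9 of the 12 with a mean of 5 RPKM or more, against 3104 of 7788 genes in all. In the reticular list stood Coch, a secreted matrix protein, at 196, 268 and 154 RPKM, and the defining Pdgfra at 0.506 RPKM on average. Mesothelial genes, from the capsule of the spleen, were detected for 2 of 13 entries, with sums of 43.1, 9.17 and 22 RPKM. Krt19, Msln and Upk3b were at 0 in WT_3 and at 4.36, 3.37 and 3.17 RPKM in WT_1.

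Agreement of the 3 libraries was high across genes. Over 11053 genes with a mean of 1 RPKM or more, Pearson's r of log2(RPKM + 0.5) was 0.973 for WT_1 with WT_3, 0.982 for WT_1 with WT_4 and 0.986 for WT_3 with WT_4, and Spearman's rank correlation was 0.972, 0.980 and 0.986. These are correlations across genes, which are not independent replicates. Among 7788 genes with a mean of 5 RPKM or more, 88.6%, 92.9% and 96.5% differed by less than 1.5-fold in the same pairs. The chi-square per degree of freedom of read counts was 104, 72.5 and 61.2, over a wider set of 13996, 13905 and 13916 genes. That measure sets a bar of counting noise alone, which separately prepared libraries pass, and served only to see that none was a copy of another. By the correlations and the 1.5-fold shares, WT_1 was the library least like the other 2.

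The spread was wider than counting alone gives. For genes of 5 to 20 RPKM the median SD of log2 values was 0.19, against 0.04 for counting error. For genes of 100 to 1000 RPKM the medians were 0.14 and 0.01. The most even genes above 100 RPKM were Arhgdia (246, 247 and 248 RPKM), the immunoproteasome subunit Psmb10 (167, 164 and 164), the actin bundler Pls3 (149, 148 and 148), Ubxn1 (116, 117 and 117) and the initiation factor subunit Eif3i (106, 106 and 106).

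A log2 SD of 0.5 or more was found for 269 of the 7788 genes (3.45%). WT_1 was the farthest library for 166 of them (61.7%), in 129 of these on the low side, and for 41.7% of all 7788 genes. Without WT_1 126 genes reached that spread, without WT_3 299 and without WT_4 574. The 20 widest were led by stromal and venous genes. Lum and Dcn, proteoglycans of fibroblasts, stood at 15.2, 0.0286 and 4.46 RPKM and at 96.1, 3.68 and 33.1 RPKM. Selp, the P-selectin of venules and platelets, stood at 16.5, 1.37 and 0.127 RPKM, and Darc, now Ackr1, the chemokine binder of venules, at 26.8, 1.16 and 1.66 RPKM. These 4 were highest in WT_1, as were Igfbp6, Slpi, Il6, Col3a1, Col1a1 and Erdr1 among the 20. Platelet genes Itga2b, Fermt3 and Gp5 were highest in WT_3, at 25.7, 20.8 and 14.3 RPKM. Fxyd6, a regulator of the sodium pump, stood at 52.8, 185 and 379 RPKM, and Sc5d, a sterol synthesis enzyme, at 9.97, 17.5 and 39.9 RPKM, both highest in WT_4.

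**Figure D4:**
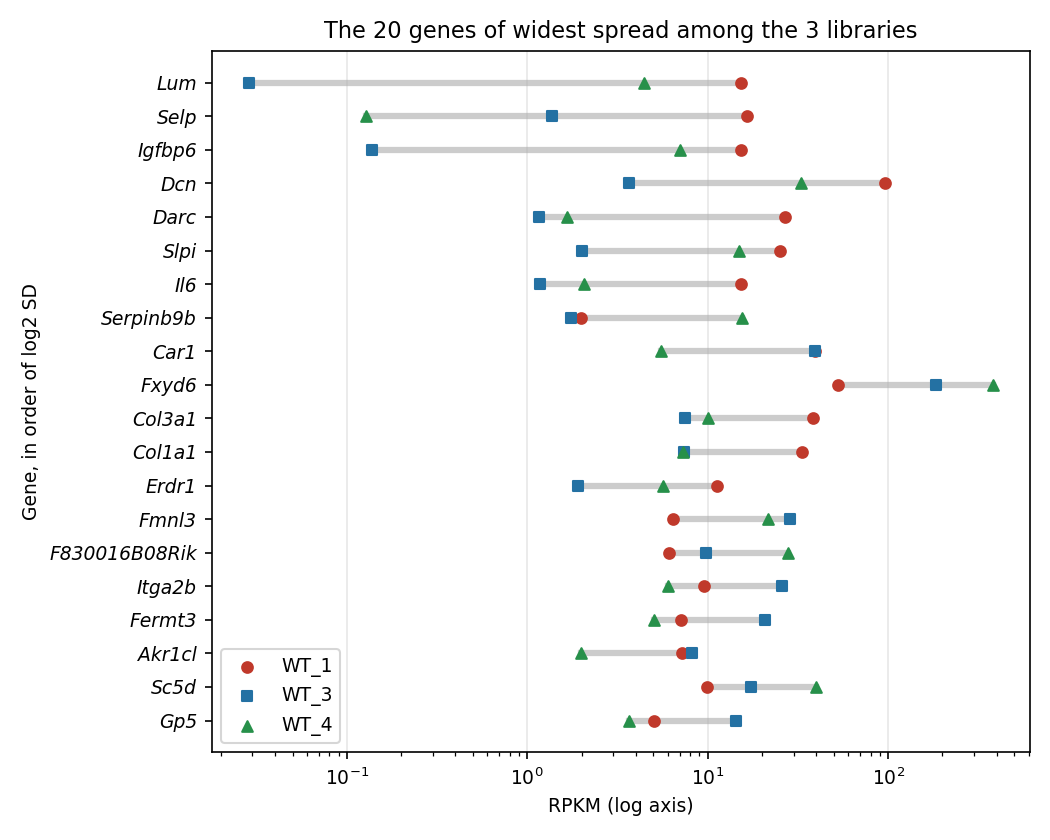
RPKM (log axis) of the 20 genes with the greatest SD of log2 values, one symbol for each library and the range as a grey line. Lum, Selp, Igfbp6, Dcn and Darc are highest in WT_1, Itga2b, Fermt3 and Gp5 in WT_3, and Fxyd6 and Sc5d in WT_4.

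The deviations also followed gene length. For genes under 1 kb the median log2 deviation from the gene's mean was 0.14 in WT_1 and -0.16 in WT_3, and for genes of 5 to 8 kb it was -0.25 and 0.16. WT_4 stayed between -0.02 and 0.12 over the 6 length classes. Removing each library's length trend, an alternative chosen after seeing the data, left 131 genes with a log2 SD of 0.5 or more, of which 114 were among the 269. WT_1 was then the farthest library for 58 of the 131, WT_3 for 37 and WT_4 for 36. Of the 20 widest genes, 18 remained among the 20 widest. Long genes such as Stab1 (7995 bases), Stab2 (8133 bases), Kdr, Flt4, Prox1, Col4a1 and Col4a2 were lowest in WT_1. The part of the length trend in their values was not tested gene by gene. Nor was its part tested in the counts of list genes highest or lowest in a library.

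**Figure D5:**
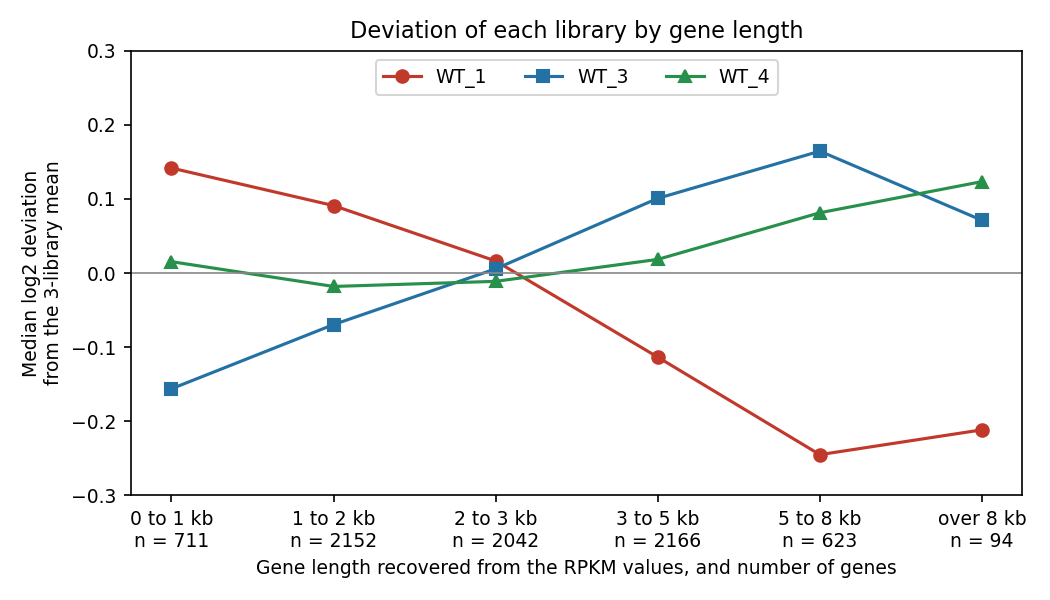
Median deviation of log2(RPKM + 0.5) from the mean of the 3 libraries, for genes with a mean of 5 RPKM or more in 6 classes of gene length, with the number of genes in each. WT_1 runs from 0.14 for genes under 1 kb to -0.25 for genes of 5 to 8 kb, and WT_3 runs the other way from -0.16 to 0.16.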

How the data were processed

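RNA of CD31+ CD45- cells from collagenase-digested mouse spleens was made into cDNA with a SMART-Seq v4 ultra-low-input kit and into libraries with Nextera XT, per the labels' protocols. These kits do not mark strand. Tools listed without settings in the submitters' processing notes are limma, edgeR, Subread and STAR 2.5.2b, and the build is mm10. The authors deposited RPKM for 23337 genes per the file headers, and the 3 wild-type columns were used. The column numbers do not match the labels' replicate numbers, so columns were assigned to a genotype only. 0 columns of per-sample values were left without a group. Antisense, overlapping and near-identical genes cannot be separated in such values.

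Whole reads were recovered from the RPKM of all 6 libraries, and the knockout columns served only to fix the worth of 1 read for each gene. From the wild-type columns alone the length differed for 1201 genes and depth came to 39080056, 48669457 and 43464562 reads. On simulated data for 17683 genes, exact reads were recovered for 99.2% of genes above 0, and 80.4% of 200 genes given a log2 SD of 1.0 passed 0.5. At these depths 1 read on 1 kb was worth 0.0198 to 0.0240 RPKM.

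A single group allows no test, so values are means with SD (n = 3), ranges and counts. Logs used a pseudocount of 0.5 RPKM. Lists were matched by symbol (1111 of 1153 names) or an older or newer symbol (31), and 11 were not matched. RefSeq gave positions for 23115 genes (GRCm38.p6). Gene lists and their members were chosen with earlier results of these data known. Named genes are the sort's 5 markers, Stab1 and Ptprc, the 30 highest genes (predicted genes, pseudogenes and RIKEN clones left out), up to 6 highest and the 3 defining members of each of 66 lists, the 20 widest genes at 5 RPKM or more and the 5 most even at 100 RPKM or more. A few genes that this rule names are not reported here. Alternatives were other thresholds, pseudocounts, scalings and leaving out each library. Python 3.11.15, numpy 2.4.6, pandas 2.3.3, scipy 1.17.1 and matplotlib 3.10.9 were used.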

Additional observations from a re-analysis of the deposited data

How the results depend on the processing

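No paired analysis was possible because a single group was described and its columns carry no number that matches the labels. Of 48 alternatives, 36 stayed within the spread of the libraries or within 1.5 times the count. The share of the 100 highest genes (26.9%) was 23.1% in reads without length correction and 27.7% without predicted genes, pseudogenes and RIKEN clones. The lowest correlation between libraries (0.973) was 0.991 with no filter on low values and 0.973 to 0.986 when each library was left out. Detected markers of other cells (95) numbered 57 at 5 RPKM and 151 at 0.1 RPKM. Genes with a log2 SD of 0.5 or more (269) numbered 621 from a mean of 1 RPKM, 82 from 20 RPKM, 131 with length trends removed, and 126 to 574 when each library was left out, with 126 without WT_1 and 574 without WT_4. When each library was left out, detected genes (10511) ranged from 10629 to 10744, the share of the top 100 from 26.5 to 27.2%, the kept genes of the top 30 from 27 to 29, list genes detected (757 of 932) from 763 to 768 and markers of other cells from 96 to 102. Counts of genes at 1 RPKM or more in every kept library cannot fall when a library is left out. The direction of those alternatives was thus fixed in advance, and they are among the 36. With 3 libraries, spread within wild type rests on few values, and no difference was tested.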

Other observations

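Gene families taken by symbol were counted in the same way, beside 45.0% of all genes detected. Tetraspanins, membrane organisers, were detected for 20 of 25 genes, with 10 of them at 100 RPKM or more in all 3 libraries, while 5 of 26 claudins were detected and Cldn5 held most of their sum. Of 357 solute carriers 165 were detected, a share near that of all genes, and of 367 Zfp zinc finger genes 246, but 1 of the latter reached 100 RPKM. Collagens were detected for 15 of 43 genes. Olfactory receptors were detected for 2 of 1123 genes and vomeronasal receptors for 0 of 334, with 1074 and 326 of them at 0 in all 3 libraries. Interferon-inducible GTPases were detected for 12 of 17 genes. WT_4 was highest for 10 of the 10 with a mean of 5 RPKM or more, against 1993 of 7788 genes in all. Histone genes were detected for 23 of 82. WT_1 was highest for 11 of the 12 with a mean of 5 RPKM or more, against 3104 of 7788 genes in all. The part of the length trend of WT_1 in this count was not tested.

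Other fixed lists added detail. BMP and TGF-beta genes were detected for 24 of 26 entries, with the co-receptor Eng at 519, 528 and 325 RPKM and the target Id3 at 883, 785 and 652 RPKM. Wnt genes were detected for 14 of 25, integrins for 16 of 21, led by the shared beta chain Itgb1 (221, 289 and 292 RPKM), and innate sensors for 18 of 25, with Tlr4 at 3.68, 2.5 and 2.93 RPKM. Antioxidant genes were detected for 25 of 25 entries. WT_1 was highest for 20 of the 23 with a mean of 5 RPKM or more, against 3104 of 7788 genes in all. The part of the length trend of WT_1 in this count was not tested. Gpx1, glutathione peroxidase, led them at 1086, 965 and 1111 RPKM. The nuclear RNA Malat1 stood at 463, 335 and 585 RPKM. In the glycocalyx list, 20 of 22 genes were detected, with Hyal2, a hyaluronidase, at 226, 264 and 226 RPKM. Glycolysis genes were detected for 19 of 22 entries, with the glucose transporters Slc2a1 and Slc2a3 at 11.3 and 7.22 RPKM on average and the lactate transporter Slc16a1 at 317, 405 and 307 RPKM.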
